A study of Mus musculus with 88 samples.

Results

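Tcf7l2, Rora, Slc17a6, Prkcd, Lef1, Tnnt1 and Synpo2 are genes that neurons of the thalamus express strongly, and their levels were followed here in every mouse as a sign of thalamic tissue in the dissected samples. The members were taken by name through their Ensembl identifiers in the GRCm38 annotation, and all 7 were found in the tables of all 3 brain regions, out of 48811 genes present in any of them. RNA sequencing was done on bulk tissue from the medial prefrontal cortex (mPFC), the bed nucleus of the stria terminalis (BNST) and the ventral hippocampus (vHPC) after chronic social defeat stress (CSDS), in which a male mouse is attacked repeatedly by an aggressive resident and otherwise lives beside it. The study asked how the response to CSDS depends on genetic background. The mice were males of 8 weeks from the inbred strains C57BL/6NCrl (B6) and DBA/2NCrl (D2). Controls lived beside another control mouse and were not attacked, and defeated mice were called susceptible or resilient by their social avoidance relative to controls of their own strain. All groups carry unmodified inbred genomes, and all mice, controls included, lived alone from the end of defeat until fresh tissue was dissected some days later.

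The 88 libraries came from 81 mice, since 7 mice gave both mPFC and vHPC. The mPFC had 32 libraries, with 6 B6 controls, 6 B6 resilient and 6 B6 susceptible mice, and 6 D2 controls and 8 D2 susceptible mice. The BNST had 28 libraries, with 5 B6 controls, 5 B6 resilient and 5 B6 susceptible mice, and 5 D2 controls, 3 D2 resilient and 5 D2 susceptible mice. The vHPC also had 28 libraries, with 6 B6 controls, 8 B6 resilient and 3 B6 susceptible mice, and 6 D2 controls and 5 D2 susceptible mice. Each library is 1 mouse, and a D2 resilient group exists only for the BNST. Levels are given as log2 CPM, in which reads are scaled to the size of each library and a difference of 1 is a change by a factor of 2. The BNST libraries held 11825757 to 25793910 counted reads, and the depth of the mPFC and vHPC libraries, whose values are on the log2 scale, was not used here.

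The thalamus relays sensory and motor signals to the cortex, and its excitatory neurons load glutamate into vesicles with VGLUT2, the product of Slc17a6. Tcf7l2 and Lef1 encode the TCF/LEF transcription factors that act with beta-catenin downstream of Wnt, and both stay on in mature thalamic neurons, in which Tcf7l2 maintains their identity. The BNST lies close to the anterior thalamus and next to the striatum, so small shifts of a dissection can include either neighbour. None of the members is exclusive to the thalamus: Tcf7l2 is also on in newly formed oligodendrocytes, Lef1 in brain endothelium, Rora in astrocytes and cortical neurons, Slc17a6 in the hypothalamus, and Prkcd in the oval nucleus of the BNST itself. In bulk tissue, fewer cells of a type and less RNA per cell cannot be told apart.

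The promoters of 3 members are shown because these genes moved together across BNST mice: Tcf7l2, the transcription factor, Prkcd, the gene with the widest range of levels above its median, and Synpo2, which followed Lef1 most closely. The sequences come from RefSeq on GRCm38.p6 and run 5′ to 3′ on the gene's strand up to the transcription start. Capitals mark TATAAA and the TCF/LEF core CTTTGA on either strand.
Tcf7l2: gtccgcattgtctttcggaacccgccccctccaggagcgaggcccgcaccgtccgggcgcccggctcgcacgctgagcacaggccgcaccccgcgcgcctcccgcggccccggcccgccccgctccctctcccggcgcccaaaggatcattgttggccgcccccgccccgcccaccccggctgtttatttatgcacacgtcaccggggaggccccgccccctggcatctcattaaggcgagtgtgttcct
Prkcd: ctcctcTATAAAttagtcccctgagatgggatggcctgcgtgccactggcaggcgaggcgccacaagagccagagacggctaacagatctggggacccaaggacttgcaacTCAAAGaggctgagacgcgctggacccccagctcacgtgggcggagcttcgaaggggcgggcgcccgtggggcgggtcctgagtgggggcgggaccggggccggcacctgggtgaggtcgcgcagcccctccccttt
Synpo2: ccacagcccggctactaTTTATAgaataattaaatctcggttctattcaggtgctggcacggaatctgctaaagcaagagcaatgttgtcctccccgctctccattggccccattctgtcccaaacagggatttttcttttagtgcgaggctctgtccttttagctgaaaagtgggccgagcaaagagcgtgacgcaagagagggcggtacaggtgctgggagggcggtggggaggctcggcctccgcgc
The Tcf7l2 window is chr19:55741560-55741809 on the plus strand, the Prkcd window chr14:30626211-30626458 on the minus strand, and the Synpo2 window chr3:123236150-123236399 on the minus strand. Searched on both strands over the 250 bases before each start, CTTTGA was found in 1 of the 7 members, Prkcd, where it reads TCAAAG 139 bases before the start, and in 14.1% of all 27025 promoters. The related core CTTTGT, present in 16.5% of promoters, and AGGTCA, the half-site of nuclear receptors such as the Rora product, present in 13.8%, had no match in the 7 windows. TATAAA was found in 3 members, Prkcd, Tnnt1 and Synpo2, and in 13.0% of all promoters. The 7 genes therefore share none of these 4 motifs in this window.

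The members had different levels in the 3 regions. The 3 tables were normalised separately, and no test was run between them, so a gene's place within each table is given beside its level. Tcf7l2 (chr19:55741820-55933654) had medians of 1.63, 5.97 and 1.42 log2 CPM in mPFC, BNST and vHPC. Percentiles were taken among the 16042 genes present in all 3 tables that reached 1 CPM in 6 or more BNST libraries. These medians ranked at percentile 13.1, 80.03 and 12.6. Lef1 (chr3:131110471-131224356) had medians of 2.81, 4.56 and 2.38, at percentiles 25.6, 57.1 and 21.8. Synpo2 (chr3:123076519-123236149), which encodes an actin-binding protein of the synaptopodin family, had medians of 3.19, 4.75 and 2.39, at percentiles 30.9, 60.4 and 21.9. These 3 genes thus stood highest in the BNST, by rank among those 16042 genes as well as by level.

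Among the other members, Prkcd was also highest in the BNST, by a smaller margin. Rora (chr9:68653786-69388246), a nuclear receptor, was high throughout, with medians of 7.41, 6.90 and 6.47 in mPFC, BNST and vHPC at percentiles 91.9, 90.2 and 83.1. Slc17a6 (chr7:51622006-51671119) was lowest in the BNST, at 3.79 against 4.77 in both other regions. Prkcd (chr14:30595354-30626210), protein kinase C delta, had medians of 3.21, 3.68 and 3.34, at percentiles 31.3, 43.1 and 33.9. Tnnt1 (chr7:4504570-4516382), the slow muscle troponin T that marks some thalamic neurons, had medians of 1.66, 0.36 and −0.29. Per kilobase of annotated exon, the median BNST level was 9.12 CPM for Rora, 7.13 for Tcf7l2, 2.68 for Lef1, 2.56 for Slc17a6, 2.31 for Prkcd, 2.06 for Synpo2 and 0.584 for Tnnt1. On this scale the transcription factors led the list in the BNST.

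Mice of one group differed more in these genes in the BNST than in the other regions, as they did in genes in general. The mean of the 7 log2 levels ran from 3.32 to 3.82 across mPFC mice, from 2.70 to 3.29 across vHPC mice and from 3.53 to 7.60 across BNST mice. The lowest BNST mean, of D2 control replicate 2, includes a Tnnt1 level computed from 0 reads. The within-group SD in the BNST was 1.85 for Tnnt1, 1.35 for Slc17a6, 1.26 for Prkcd, 0.96 for Synpo2, 0.67 for Lef1, 0.58 for Tcf7l2 and 0.53 for Rora. The median of all tested BNST genes was 0.42, and the SDs of Tnnt1, Slc17a6 and Prkcd were at percentiles 99.7, 98.0 and 97.2. The median SD of all genes was also smaller in the mPFC, 0.15, and vHPC, 0.14, whose values had been adjusted for batch by the authors while the BNST counts had not.

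**Figure D1:**
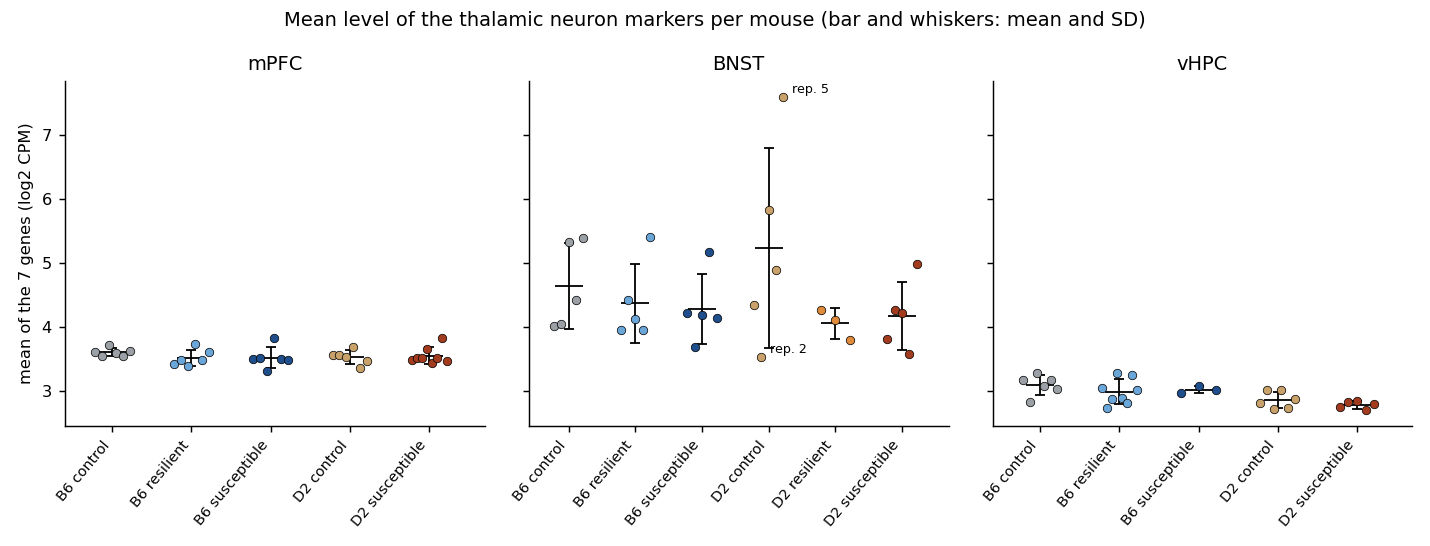
Mean of the 7 genes' levels (vertical axis, log2 CPM) for each mouse (points), by group and region; bars and whiskers are the group mean and SD. The BNST mice spread from 3.53 to 7.60, and D2 control replicate 5 is the highest. The lowest, D2 control replicate 2, had no read of Tnnt1.

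A few BNST libraries stood apart from the rest. D2 control replicate 5 had the highest level of all 28 BNST libraries in every one of the 7 members. Relative to the median of the other 27, it was 36.1-fold higher for Prkcd, 22.8-fold for Tnnt1, 12.7-fold for Slc17a6, 8.36-fold for Synpo2, 5.45-fold for Rora, 5.29-fold for Lef1 and 4.26-fold for Tcf7l2. Even against the next highest library, the fold ran from 1.90 for Slc17a6 to 5.75 for Prkcd. It held the highest value of 8.79% and the lowest value of 8.05% of the 17515 genes tested, so its difference from the other libraries was not confined to these genes.

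Other marker lists also set this mouse apart. Of 13 further thalamic markers (Rgs16, Plekhg1, Ramp3, Ptpn3, Gbx2, Ntng1, Zic1, Zic4, Slitrk6, Vav3, Calb2, Adarb1 and Shox2), 11 were highest in D2 control replicate 5, Zic4 ranked 3 and Calb2 was below the median. Shox2, a transcription factor of thalamic neurons, had 1505 reads there, a level of 6.34 against a median of −1.76 in the other 27 libraries, 2 of which had no read. All 8 striatal neuron markers (Drd1, Drd2, Adora2a, Ppp1r1b, Rgs9, Pde10a, Penk and Tac1) were below that median, and 5 of them were at their lowest of all 28 libraries. Their summed level was 889 CPM in this mouse, the lowest of a range that reached 8286 CPM. Of the 6 habenula markers 3 lay above and 3 below the median, and Tac2, a neuropeptide gene of the habenula and BNST, was at its lowest, 0.35 against 4.01. Of the 6 markers for BNST and hypothalamus 2 were above and 3 below the median, with Esr1 and Crh at their lowest of all libraries. Of 6 astrocyte markers 5 were above the median and Aldh1l1 was at its highest, while Slc1a3 ranked 27 of 28. All 5 measured markers of newly formed oligodendrocytes were above the median.

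D2 control replicate 2 went the other way for several members. Lef1, Tnnt1 and Synpo2 were at their lowest of all 28 libraries in this mouse, at 3.501, −4.97 and 2.598, and Tnnt1 had no read. A count of 3 reads in that library corresponds to 0.251 CPM, so a Tnnt1 level up to −1.99 log2 CPM would be allowed. Slc17a6, in contrast, was second highest there, at 6.52. All 6 markers for BNST and hypothalamus were above the median of the other libraries in this mouse. Of the further thalamic markers 8 were above it and 5 below, and of the striatal markers 1 was above it and 7 below. The library held the highest value of 26.3% and the lowest value of 28.2% of all tested genes. In B6 susceptible replicate 3, Slc17a6 was at its lowest of all libraries, 0.76, and the mean of the striatal neurons' markers at its highest, 9.21. That library held the highest value of 16.8% and the lowest value of 15.7% of all tested genes, so its difference was not confined to these markers.

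The labelled tissues were checked against markers of their own, which by median set the mPFC apart more clearly than the other regions. Summed over 6 cortical neuron markers, the mPFC libraries had 323 to 640 CPM with a median of 538, and the BNST libraries 123 to 615 CPM with a median of 167. The vHPC libraries had 215 to 327 CPM with a median of 269, so the mPFC range overlapped those of both other regions. The 5 hippocampal neuron markers summed to 942 to 1330 CPM in the vHPC, with a median of 1072, and to 822 to 1614 CPM in the BNST, with a median of 1030.2. The 6 markers for BNST and hypothalamus summed to 36.4 to 146 CPM in the BNST, with a median of 62.5. Cyp19a1 had no read there in 15 of 28 libraries. The 4 of them measured elsewhere summed to 68.2 to 107 CPM in the mPFC, with a median of 88.4. In the vHPC these 4 summed to 59.4 to 138 CPM, with a median of 78.9. The BNST thus had the lowest median for its own list, though summed over more genes. The ranges of these last 2 lists overlapped between the BNST and the vHPC, and that of the last list also with the mPFC. The tables were normalised separately. The 8 striatal markers summed to 889 to 8286 CPM in the BNST. The same 8 summed to 211 to 626 CPM in the mPFC and 177 to 209 CPM in the vHPC. Transcripts of these markers were thus present in all BNST libraries, in amounts that differed more than 9-fold between mice. Whether they came from striatal tissue or from the BNST itself was not tested.

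**Figure D2:**
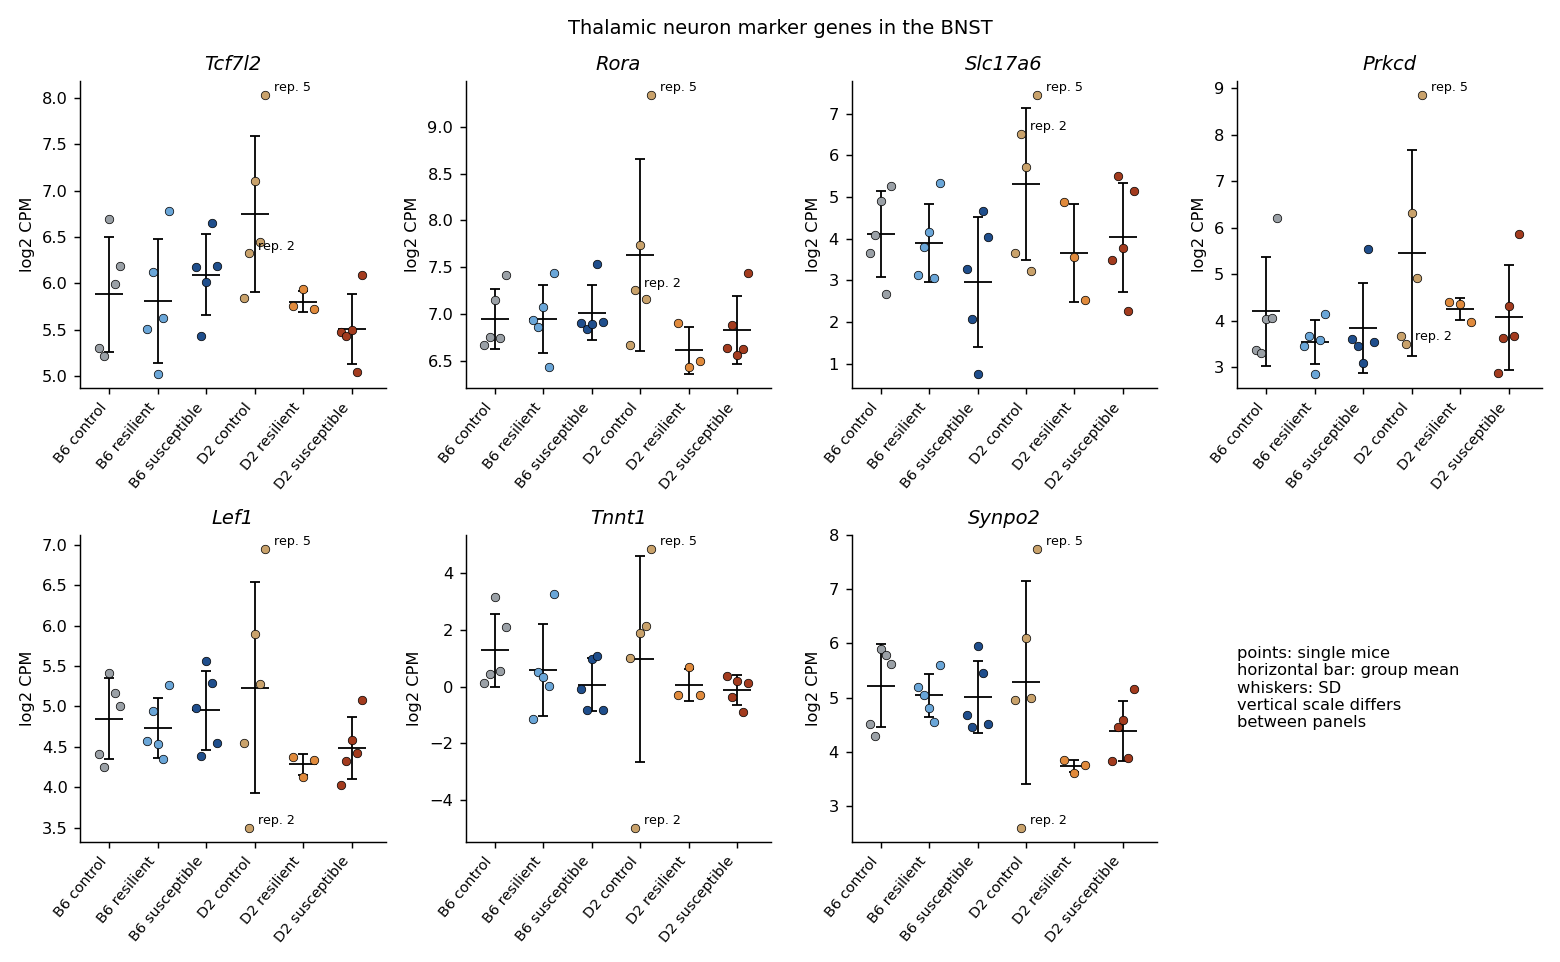
Level of each thalamic marker gene (log2 CPM, vertical axis, scale differs between panels) in each of the 28 BNST mice by group, with group mean and SD. D2 control replicate 5 is the highest point in all 7 panels, and replicate 2 is the lowest for Lef1, Tnnt1 and Synpo2.

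Among the transcription factors, Tcf7l2 had BNST levels of 5.85, 6.32, 7.10, 6.44 and 8.03 in the D2 controls, 5.75, 5.94 and 5.73 in D2 resilient mice and 5.48, 5.44, 5.502, 5.04 and 6.09 in D2 susceptible mice. Of the 5 D2 susceptible mice, 4 were below every D2 control, and the fifth overlapped them. In B6, its levels were 5.31, 5.22, 6.70, 6.00 and 6.18 in controls, 5.505, 6.12, 5.03, 5.63 and 6.78 in resilient mice and 6.17, 5.44, 6.02, 6.65 and 6.18 in susceptible mice. The 3 B6 groups overlapped over almost their whole range.

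Rora, whose product binds DNA as a monomer, had levels of 6.67, 7.26, 7.74, 7.166 and 9.34 in D2 controls, 6.90, 6.44 and 6.5001 in D2 resilient mice and 6.64, 6.88, 6.57, 6.63 and 7.44 in D2 susceptible mice. Both defeated D2 groups overlapped the controls. All 15 B6 mice lay between 6.43 and 7.53, with group means of 6.95 ± 0.32 (SD, n = 5) in controls, 6.95 ± 0.36 (n = 5) in resilient and 7.02 ± 0.29 (n = 5) in susceptible mice. Lef1, of the same TCF/LEF family as Tcf7l2, had levels of 4.54, 3.501, 5.89, 5.28 and 6.95 in D2 controls, 4.37, 4.13 and 4.34 in D2 resilient and 4.03, 4.33, 4.59, 4.42 and 5.07 in D2 susceptible mice. The D2 controls thus spanned both the lowest and the highest Lef1 level of the whole BNST table.

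Slc17a6, the vesicular transporter, had levels of 3.66, 6.52, 5.73, 3.23 and 7.45 in D2 controls, 4.87, 3.57 and 2.53 in D2 resilient and 3.48, 5.51, 3.79, 2.27 and 5.14 in D2 susceptible mice. Levels in B6 were 3.67, 4.08, 4.90, 2.67 and 5.26 in controls, 3.119, 3.80, 4.16, 3.05 and 5.34 in resilient and 3.28, 2.07, 0.76, 4.66 and 4.03 in susceptible mice. Each group spread over more than 2 log2 units and all groups overlapped.

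Prkcd, the kinase, reached 181, 135, 1367, 408 and 8557 reads in the 5 D2 controls, or levels of 3.67, 3.501, 6.33, 4.93 and 8.85. The D2 resilient mice had 4.41, 4.36 and 3.98 and the D2 susceptible mice 2.88, 3.63, 4.33, 3.68 and 5.86. High values were found in B6 as well, where control replicate 5 had 6.21 and susceptible replicate 4 had 5.55, while the other 13 B6 mice lay between 2.86 and 4.1496.

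Of the 2 genes for proteins of the actin filament, Synpo2 had levels of 4.96, 2.598, 6.10, 5.00 and 7.75 in D2 controls, 3.85, 3.61 and 3.75 in D2 resilient and 3.83, 4.45, 4.59, 3.88 and 5.16 in D2 susceptible mice. All 3 D2 resilient mice were above D2 control replicate 2 and below the other 4 controls. Tnnt1 had 28, 0, 62, 59 and 539 reads in the D2 controls, or 1.002, −4.97, 1.87, 2.145 and 4.86, against −0.28, 0.70 and −0.28 in D2 resilient and 0.38, −0.37, 0.19, −0.90 and 0.11 in D2 susceptible mice. Its B6 levels ran from −1.15 to 3.25, and the 2 highest were B6 resilient replicate 5 and B6 control replicate 3, at 3.25 and 3.17. Except for replicate 2, every D2 control was above every defeated D2 mouse in Tnnt1.

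The same mice tended to be high in several members in the BNST. After each group's mean was taken off, the 21 pairs of members had a median Pearson r of 0.70 over 28 mice, from 0.16 to 0.96, and 18 pairs were over 0.5. Lef1 and Synpo2 were the closest pair, with r = 0.96. Slc17a6 was the least coupled member, with r = 0.23 to Lef1, 0.16 to Tnnt1 and 0.20 to Synpo2. The points of these correlations share a library, its scaling and its dissection, and they are given as descriptions.

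These values were lower when D2 control replicate 5 was left out. Without it (n = 27), the median r was 0.57, from −0.04 to 0.94, with 14 pairs over 0.5. Without D2 control replicates 2 and 5 (n = 26), it was 0.64, from 0.27 to 0.91. In the mPFC (n = 32) the median r was 0.20, none of the 21 pairs exceeded 0.5, and Rora and Prkcd ran opposite to each other with r = −0.63. In the vHPC (n = 28) the median was 0.27, with 6 pairs over 0.5, the highest being Rora and Slc17a6 at 0.65.

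**Figure D3:**
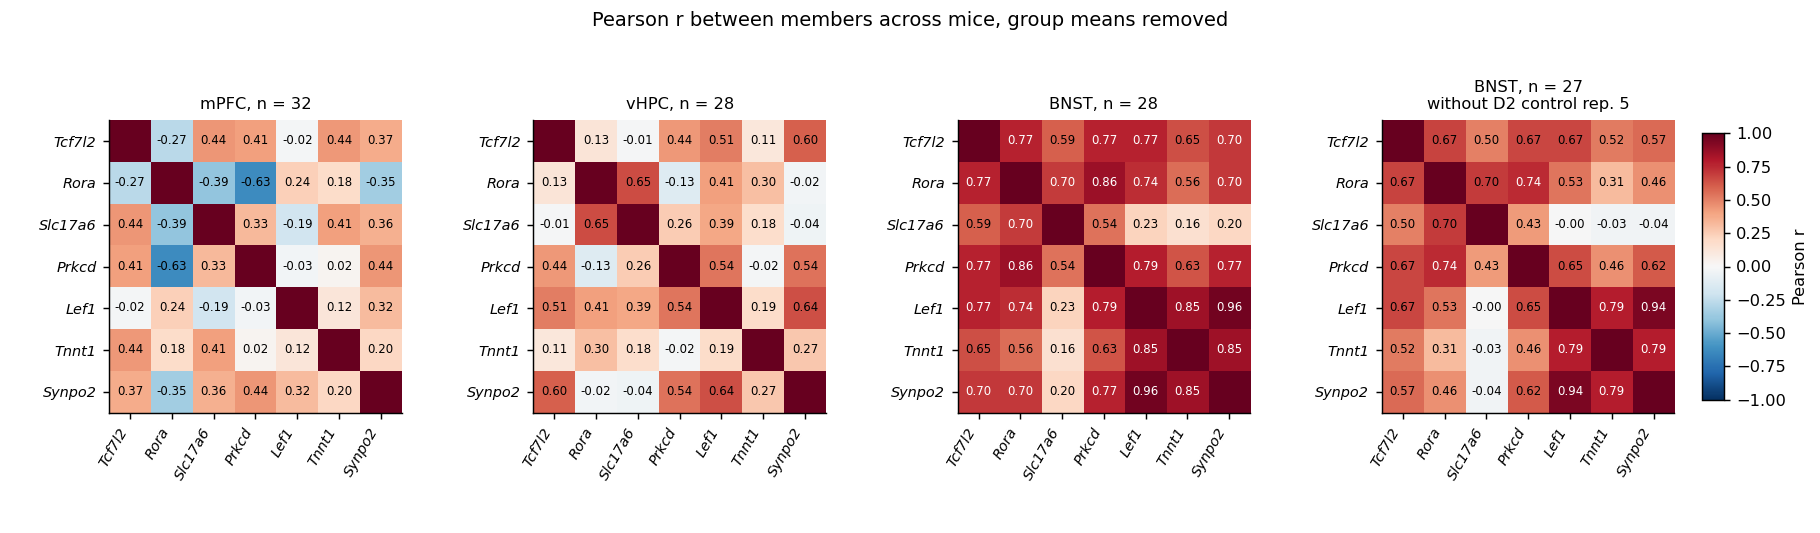
Pearson r between each pair of the 7 genes across mice (colour and printed value, from −1 to 1), after removal of group means, for mPFC, vHPC and BNST with and without D2 control replicate 5. The median of the 21 pairs is 0.20, 0.27, 0.70 and 0.57 in these 4 panels.

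Markers of other cells moved with the members to different degrees. In the BNST, the mean of the 13 further thalamic markers followed the mean of the 7 members with r = 0.94, and 0.90 without D2 control replicate 5. For the mean of the astrocytes' markers r was 0.69 with and without that mouse, and for newly formed oligodendrocytes 0.65 and 0.62. For striatal neurons r was −0.43 with it, −0.09 without it and −0.42 without D2 control replicates 2 and 5, and for habenula −0.39, −0.14 and −0.03. In the mPFC, r was 0.67 for the 11 further thalamic markers measured there, 0.64 for astrocytes and −0.63 for markers of neurons in general. In the vHPC, it was 0.72 for further thalamic markers, but also 0.79 for cortical neurons, 0.74 for choroid plexus with a summed level from 11.3 to 2123 CPM, and 0.70 for striatal neurons. So inside the BNST as well as outside it, the members' mean also moved with markers of cells other than thalamic neurons. The part of these cells in the members' levels was not tested.

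The genes most like the members' mean were looked for among all others with a mean level of at least 1 log2 CPM. In the BNST (n = 28) the nearest 5 of 14395 genes were Eps8l2 (r = 0.94), Grid2ip (0.93), Plekhg1 (0.92), Shisal1 (0.92) and Car4 (0.91), and 92 genes were over 0.8. Plekhg1 is 1 of the 13 further thalamic markers. Without D2 control replicate 5 they were Grid2ip (0.93), Ccdc136 (0.89), Eps8l2 (0.89), Plekhg1 (0.87) and Ramp3 (0.87), with 42 genes over 0.8. The nearest in the mPFC were Patj (0.80), Myo10 (0.80), Zic4 (0.79), Glipr2 (0.79) and Bgn (0.79). In the vHPC they were Cd63-ps (0.90), Pak2 (0.89), H13 (0.89), Gm4972 (0.89) and Nudt4 (0.88). The 3 lists had no gene in common.

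In the BNST of D2 mice, all 7 members were lower in susceptible mice than in controls by fitted difference, and none passed the test after adjustment. Prkcd differed by −2.43 ± 0.80 (log2, SE), Tnnt1 by −3.09 ± 0.92, Synpo2 by −1.68 ± 0.54, Slc17a6 by −1.63 ± 0.74, Tcf7l2 by −1.41 ± 0.35, Lef1 by −1.15 ± 0.39 and Rora by −1.11 ± 0.33. Unadjusted p-values ran from 0.000474 for Tcf7l2 to 0.0361 for Slc17a6, so 7 of 7 were under 0.05, a level at which 4.24% of all 17515 genes were lower. Adjusted over all genes by Benjamini-Hochberg in edgeR, the members had 0.518 to 0.771. No gene at all passed (0%), against 1056 genes in either direction at the unadjusted level and 12 in DESeq2, none of them a member. The fitted difference compares mean counts, in which a library with very high counts weighs more than in the mean of log2 levels: for Prkcd those means were 5.46 ± 2.21 (SD, n = 5) in controls and 4.08 ± 1.124 (n = 5) in susceptible mice.

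These differences rested in large part on 1 library. Without D2 control replicate 5, the 7 differences shrank to between −0.39 for Rora and −1.44 for Tnnt1, and 1 of 7, Tcf7l2 with −0.95, had an unadjusted p under 0.05 (0.00625). When D2 control replicates 2 and 5 were both left out, 4 of 7 had one, with differences from −0.18 to −1.85. The letters and digit that open the mouse IDs also divide the groups unevenly. Of the D2 controls, 3 carry ED6, with means of the 7 members of 5.82, 4.88 and 7.60, and the only susceptible mouse with ED6 is the highest of its group, at 4.98. For ED4 the control had 3.53 and the 3 susceptible mice 3.58 to 4.27, and for ED3 the single mice had 4.34 and 3.82. The ED4 control is replicate 2, whose mean includes a Tnnt1 level computed from 0 reads, so its place below the susceptible mice is not secure. With this prefix as a covariate, 1 of 7 members, Tcf7l2 at −0.93, had an unadjusted p under 0.05, and the differences ran from −0.26 to −1.33. What the prefix stands for is not given in the sources used here.

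Against the same D2 controls, D2 resilient mice also had lower fitted values in 7 of 7 members, from −1.15 for Tcf7l2 to −2.89 for Tnnt1. Synpo2 differed by −2.41 ± 0.68 (log2, SE), from a mean of 5.28 ± 1.88 (SD, n = 5) to 3.73 ± 0.12 (n = 3). At the unadjusted level all 7 were under 0.05, from 0.00143 to 0.0277, beside 3.24% of all genes. Adjusted p-values in edgeR were 0.846 to 0.902 and no gene passed (0%), with 953 genes unadjusted and 3 in DESeq2, none a member. Without D2 control replicate 5, Rora at −0.63 and Synpo2 at −1.37 remained under the unadjusted level. Both D2 comparisons share their controls. Between the defeated groups themselves, D2 susceptible and D2 resilient mice differed by −0.26 to 0.73 and no member had an unadjusted p under 0.05, where 1.31% of genes did.

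**Figure D4:**
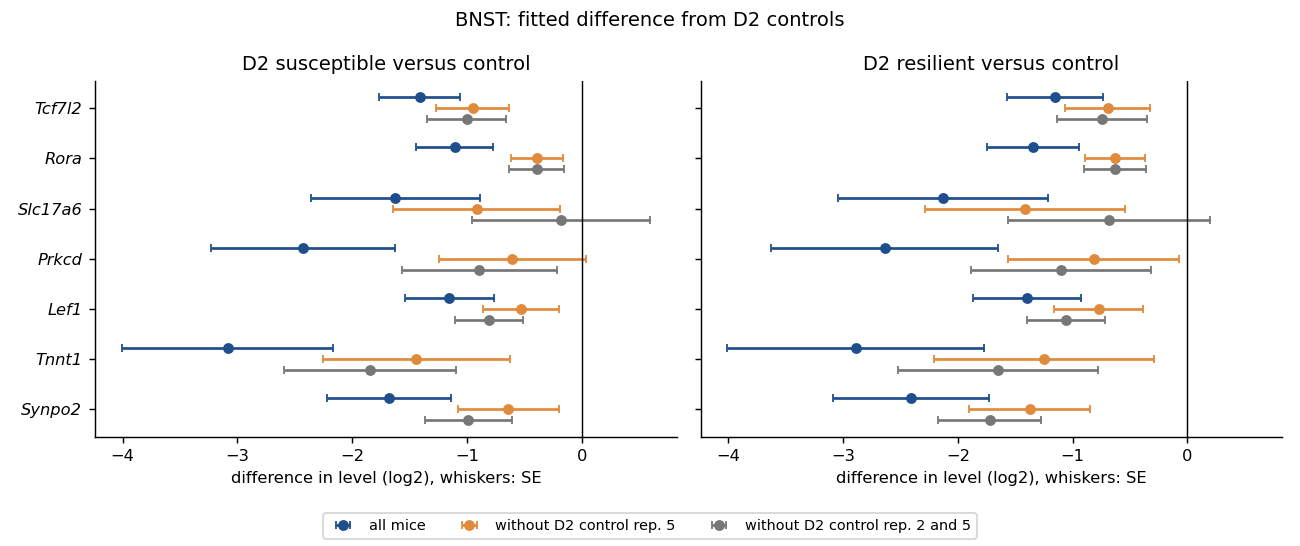
Fitted BNST difference (log2, horizontal axis, whiskers SE) of D2 susceptible (left) and D2 resilient (right) mice from D2 controls for each gene, with all mice, without D2 control replicate 5, and without replicates 2 and 5. All points lie left of 0, and those without replicate 5 lie nearer to 0 than those with all mice.

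The difference between unstressed strains in the BNST went through the same controls. D2 controls had higher fitted values than B6 controls in 7 of 7 members, by 0.77 for Lef1 to 2.226 for Prkcd. Unadjusted p-values under 0.05 were found for Rora (0.998 ± 0.33, SE), Prkcd (2.226 ± 0.79), Tcf7l2 (0.97 ± 0.35) and Slc17a6 (1.72 ± 0.74), at a level where 7.53% of genes were higher. After adjustment in edgeR 439 genes passed (2.51%) and 0 of the members, with 0.137 to 0.544, and in DESeq2 660 genes passed and again 0 members. For Tnnt1 the fitted difference was 1.21 upward, while its mean log2 level was lower in D2 controls, 0.98 ± 3.63 (SD, n = 5), than in B6 controls, 1.27 ± 1.302 (n = 5). That D2 mean includes replicate 2, whose level of −4.97 stands for 0 reads, so the order of the 2 means is not secure. The median levels were 1.87 in D2 controls and 0.55 in B6 controls. Without D2 control replicate 5, 5 members were higher and 2 lower, from −0.44 to 1.004, and no member had an unadjusted p under 0.05. The adjusted test called Rora (1.198) without D2 control replicate 1 and Prkcd (3.16) without B6 control replicate 5.

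The test of the difference between strains in the response of susceptible mice gave negative values for 7 of 7 members, from −0.76 for Slc17a6 to −1.93 for Prkcd. Tcf7l2 at −1.57 ± 0.50 (SE), Lef1 at −1.26 ± 0.55 and Rora at −1.17 ± 0.47 had unadjusted p-values under 0.05, where 7.35% of genes were lower. The lowest adjusted p of a member was 0.184 (edgeR, Tcf7l2). No gene passed (0%), with 2004 at the unadjusted level and 223 in DESeq2, none a member. Without D2 control replicate 5, only Tcf7l2, at −1.10, was under the unadjusted level.

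In the BNST of B6 mice no member passed the test between groups. Resilient mice differed from controls by −1.07 to 0.00, susceptible mice from controls by −1.47 to 0.16 and susceptible from resilient mice by −1.14 to 0.57 (log2). No member had an unadjusted p under 0.05 in these 3 comparisons, where 1.87%, 6.37% and 7.55% of all genes did. Adjusted, edgeR called 0%, 0% and 0.00571% of genes (0, 0 and 1) and DESeq2 1, 0 and 42 genes, none of them a member. The mean of the 7 levels was 4.64 ± 0.68 (SD, n = 5) in B6 controls, 4.37 ± 0.61 (n = 5) in resilient and 4.28 ± 0.54 (n = 5) in susceptible mice. In each B6 group 1 or 2 mice were above 5, namely control replicates 3 and 5 (5.33 and 5.398), resilient replicate 5 (5.404) and susceptible replicate 4 (5.17), so each B6 group held such a mouse. All 4 have IDs that open with EC4, whose 8 mice ran from 3.95 to 5.404 where the 7 mice with EC3 ran from 3.69 to 4.42. Both prefixes occur in all 3 B6 groups.

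The 13 further thalamic markers, 11 of which were highest in D2 control replicate 5, had the members' direction in most cases in the D2 comparisons. In D2 susceptible mice 12 of 13 had lower fitted values than in controls and 7 had an unadjusted p under 0.05, beside 4.24% of all genes, with a median of −0.82, against −0.04 over all genes and −1.63 over the 7 members. For D2 resilient mice 12 of 13 were lower, 8 of them unadjusted beside 3.24% of genes, with a median of −1.02, against −2.13 for the members. Between control strains 12 of 13 were higher in D2, 9 unadjusted beside 7.53% of genes, with a median of 1.17 against 0.998 for the members, and 1 passed the adjusted test. This was Slitrk6, a neuronal adhesion gene, with 1.121 ± 0.30 (SE) and an adjusted p of 0.0371 in edgeR. When D2 control replicate 5 was left out, the markers with an unadjusted p under 0.05 numbered 0 for D2 susceptible mice, 0 for D2 resilient mice and 2 between control strains, none passed the adjusted test, and the medians were −0.36, −0.57 and 0.30. With replicates 2 and 5 both left out, the numbers were 1, 0 and 1. In the B6 comparisons none of the 13 had an unadjusted p under 0.05.

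In the vHPC, Prkcd was the member that differed most between groups. Its levels were 3.91, 3.74, 3.86, 3.76, 4.10 and 3.63 in B6 controls and 3.00, 3.46 and 3.16 in B6 susceptible mice. The 8 B6 resilient mice had 3.1505 at the lowest, a median of 3.502 and 4.25 at the highest, and overlapped both. Prkcd was lower in B6 susceptible mice than in controls by −0.63 ± 0.17 (log2, SE), with an adjusted p of 0.0056 in limma, and was the only member of 7 that passed, in a comparison in which 40.6% of all genes did. With the library preparation set as a covariate the difference was −0.90 ± 0.52, with an adjusted p of 0.479. No set held both B6 controls and defeated B6 mice, so set and defeat cannot be told apart there, nor did any hold controls of both strains. In B6 the summed choroid plexus markers had medians of 428, 261 and 47.2 CPM in control, resilient and susceptible mice, with overlapping ranges. D2 controls had 35.8 CPM. Summed cortical neuron markers rose instead, with medians of 231, 241 and 287 CPM in the B6 groups and 281 CPM in D2 controls. The part of these cells in the Prkcd differences was not tested. Between resilient B6 mice and controls, 4.94% of genes were called higher and 5.9% lower, with 0 members among them. Only Prkcd, at −0.27 ± 0.13, was under an unadjusted 0.05 there, as were 24.2% of genes. Without resilient replicate 4 Prkcd was called, at −0.37. Between susceptible and resilient B6 mice (27.6% of genes) 0 members were called and 2 were under the unadjusted level (41.7% of genes), Lef1 at 0.38 ± 0.16 and Prkcd at −0.35 ± 0.16.

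The strains differed in the vHPC of unstressed mice in 3 of 7 members, in a comparison that called 59.3% of all genes. Prkcd in D2 controls was 2.86, 3.36, 2.73, 3.27, 2.67 and 2.97, a difference of −0.86 ± 0.14 from B6 controls (log2, SE; adjusted p = 1.12e-05, limma). Synpo2 was lower in D2, with a mean of 2.174 ± 0.22 (SD, n = 6) against 2.78 ± 0.23 (n = 6), a difference of −0.61 ± 0.14 (adjusted p = 0.000711). Tnnt1 was higher in D2, at 0.13 ± 0.21 (SD, n = 6) against −0.60 ± 0.34 (n = 6), a difference of 0.72 ± 0.16 (adjusted p = 0.000537). The lowest D2 and highest B6 Tnnt1 levels were −0.23 and −0.27, and the highest D2 and lowest B6 Synpo2 levels were 2.41 and 2.43. With the library set as a covariate only Tnnt1 was called, at 2.21 ± 0.46 with an adjusted p of 0.00528. The 3 called genes thus moved in both directions, and the members' mean was 2.86 ± 0.13 (SD, n = 6) in D2 and 3.09 ± 0.16 (n = 6) in B6 controls. Of the further thalamic markers 11 were tested, and 4 were called higher and 6 lower.

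**Figure D5:**
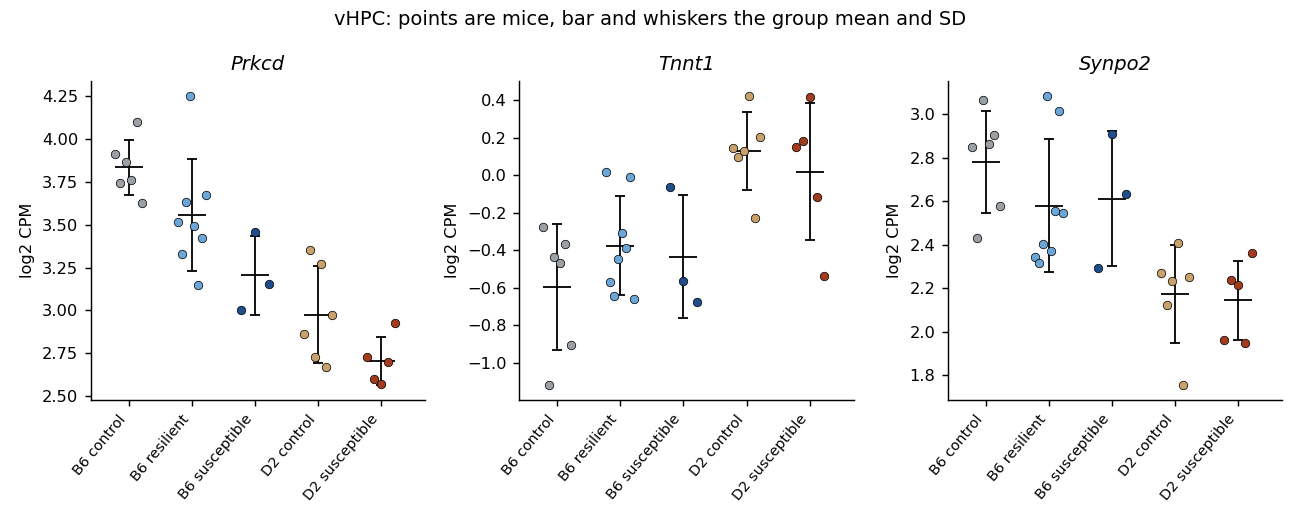
Levels of Prkcd, Tnnt1 and Synpo2 (log2 CPM, vertical axis, scale differs between panels) in the 28 vHPC mice by group, with group mean and SD. Prkcd has a mean of 3.83 in B6 controls, 3.21 in B6 susceptible mice and 2.98 in D2 controls, and Tnnt1 is higher in D2 controls than in B6 controls.

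Between defeated D2 mice and D2 controls no member passed in the vHPC, where 4.28% of genes were called (limma). None was under an unadjusted 0.05, as 17.6% of genes were. Prkcd was 2.73, 2.6002, 2.57, 2.70 and 2.93 in the 5 D2 susceptible mice, a difference of −0.27 ± 0.15 (log2, SE), and overlapped the D2 controls. The test of the difference between strains in the susceptible response called 0.782% of genes and 0 members in limma, and 0 members were under the unadjusted level, where 18.4% of genes were. For Prkcd that difference was 0.36 ± 0.23 (SE), so the response of this gene in B6 was not shown to differ from that in D2.

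The mPFC gave 1 call among the members. Synpo2 was lower in D2 controls than in B6 controls, at 2.89 ± 0.27 (SD, n = 6) against 3.27 ± 0.10 (n = 6), by −0.38 ± 0.13 (log2 difference, SE; adjusted p = 0.0231, limma), with overlapping mice, in a comparison that called 27.8% of genes. The D2 controls had 2.55 at the lowest, a median of 2.87 and 3.18 at the highest, and the B6 controls 3.14, 3.27 and 3.38. The call was lost without D2 control replicate 1 (adjusted p = 0.0593), 3 (0.0509) or 5 (0.0732). Synpo2 was thus lower in D2 than in B6 controls in both mPFC and vHPC. From the further thalamic list, only genes with the smallest p-values were named, up to a set number. Of these, Rgs16 at −0.90 and Plekhg1 at −0.41 were lower in D2 controls, and Ptpn3 at 0.27 and Adarb1 at 0.20 were higher. The other genes of that list are not described for this comparison.

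Defeat gave no call among the members in the mPFC. B6 resilient mice against controls (0% of genes called by limma, 731 or 3.86% unadjusted) had 1 member under the unadjusted level, Tnnt1 at −0.32 ± 0.15 (log2, SE). B6 susceptible mice against controls (2.22%, and 18.2% unadjusted) had 2, Prkcd at −0.36 ± 0.16 and Slc17a6 at −0.28 ± 0.13. Susceptible against resilient B6 mice (2.02%, and 19.6% unadjusted) had 1, Tnnt1 at 0.36 ± 0.15. D2 susceptible mice against D2 controls and the strain difference in that response (0% each, with 734 and 1766 genes, or 3.87% and 9.32%, unadjusted) had 0 members under the unadjusted level. DESeq2 and edgeR need counts and were not run on the mPFC and vHPC values.

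In the 7 mice that gave both mPFC and vHPC, the mean of the 7 members was 3.55, 3.55, 3.39, 3.73, 3.47, 3.51 and 3.82 for mPFC tissue. Their vHPC values, in the same order, were 3.29, 3.04, 2.89, 3.25, 2.73, 2.83 and 2.79. The fourth, a B6 resilient mouse, was above its group's mean in both, by 0.21 and 0.26, and the seventh, a D2 susceptible mouse, was above it by 0.27 in the mPFC and by 0.01 in the vHPC. BNST tissue came from other mice.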

How the data were processed

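RNA was sequenced from bulk tissue of single mice after depletion of ribosomal RNA, with different library kits for the 3 regions. The authors removed adapters and duplicate reads, aligned to GRCm38 (mm10) and counted reads per gene with HTSeq. For the BNST the deposited values are raw counts. For mPFC and vHPC the authors deposited log2 CPM after a filter and voom, with ComBat used on the library preparation sets (and in vHPC on the sequencing sets), so that batch was partly removed before any test. Such adjustment can leave p-values too small where set and group overlap.

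BNST levels were computed as log2 CPM with TMM scaling and a prior count of 0.5. Genes that reached 1 CPM in 6 or more libraries (17515 of 48795) were tested with edgeR's quasi-likelihood test (edgeR 4.0.16). The 18946 mPFC and 19559 vHPC genes were tested with robust empirical Bayes in limma 3.58.1. All groups of a region entered 1 fit, and p-values were adjusted by Benjamini-Hochberg over all its genes, with 0.05 as the threshold. DESeq2 1.42.0, voom with ComBat (sva 3.50.0), covariates for batch and the omission of each mouse were alternatives. The scripts were tested on simulated data. The members, the marker lists and the genes to name (all 7 members, and the 5 genes most like their mean in each region) were chosen with earlier results of these data known. Groups and replicates follow the labels. Mice are the replicates. Intervals for reads cover counting error only. Exon lengths are from GENCODE vM21, and genes sharing reads with overlapping transcripts cannot be separated here. One item of a marker list is not reported here.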

Additional observations from a re-analysis of the deposited data

Results flagged for a closer look

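Of 112 checks of a gene, or of the mean of the 7 genes, in a group of 4 to 10 mice, 8 had a mouse that lay far from the others of its group relative to the group's range. Chance gives about 5% of such checks. Prkcd gave 4 of the 8. In the BNST, B6 control replicate 5 had 6.21 log2 CPM of Prkcd, with the nearest mouse at 4.06, and B6 susceptible replicate 4 had 5.55, with the nearest at 3.61. In the mPFC, B6 resilient replicate 4 had 4.08 of Prkcd, with the nearest at 3.403, and D2 susceptible replicate 7 had 4.13, with the nearest at 3.47. Rora gave 3. In the BNST, B6 susceptible replicate 4 had 7.53 of Rora, with the nearest at 6.91, and in the mPFC B6 resilient replicate 2 had 7.52, with the nearest at 7.31, and B6 susceptible replicate 2 had 7.47, with the nearest at 7.41. Tcf7l2 was 1.74 in vHPC D2 control replicate 2, with the nearest at 1.41. B6 susceptible replicate 4 in the BNST was therefore far from its group in both Prkcd and Rora. D2 control replicate 5, although the highest in all 7 genes, did not meet the criterion, since the other D2 controls were themselves widely spread.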

How the results depend on the processing

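The counts of members called over the 20 comparisons stayed within 1.5 times the reported count in 395 of 408 alternative fits, and no difference of a called member changed sign. In most comparisons the reported count was 0, so an unchanged count says little about the size of the differences. Of the members' differences, 17 gained a call and 6 lost one. A further 112 without a call moved by more than their reported SE, and 2712 did none of these. The 13 exceptions among the counts were these. In the mPFC, the strain difference between controls had 0 to 1 members called when single mice were left out, against 1 reported. In the BNST, the strain difference between controls had 0 to 1, against 0. In the vHPC, B6 resilient versus control had 0 to 1, against 0, and D2 versus B6 controls had 3 to 5, against 3, with 5 without B6 control replicate 4. With the library preparation set as a covariate, vHPC B6 susceptible versus control had 0, against 1, and D2 versus B6 controls 1, against 3. B6 susceptible versus resilient in the vHPC had 0, and 1 (Lef1) with a covariate for the prefix of mouse IDs, with quantile normalization, or without B6 resilient replicate 4 or 7. The cause of these changes was not tested. Without D2 control replicate 5, the count of members under an unadjusted 0.05 in the BNST fell from 7 to 1 for D2 susceptible mice, from 7 to 2 for D2 resilient mice and from 4 to 0 between control strains. With limma on voom values and ComBat it was 4, 4 and 2. Leaving out D2 control replicates 2 and 5 together, and either omission for the further thalamic markers, was chosen after seeing the data. The mouse ID prefix could not be fitted for the comparison of control strains or for BNST comparisons with D2 resilient mice, since no prefix holds both groups. In fits of the compared groups only, Tnnt1 fell under the filter in 3 BNST comparisons, as it did in the vHPC with a minimum mean of 1 log2 CPM. No paired analysis was possible because the groups compared hold different mice and the replicate numbers only name them. With 3 to 8 mice a group and BNST SDs of 0.53 to 1.85, only large differences could pass, and low read counts limit Tnnt1.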
